A study of Rattus norvegicus with 15 samples.

Results

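Cytosolic ribosomal protein genes encode the protein components of the large and small subunits of the ribosome outside mitochondria. Here they were followed in cultured rat spermatogonial stem cells as the growth factor GDNF was taken away and given back. Members were chosen by name only: a probe set with 1 gene symbol made of Rpl or Rps and a digit, or Rplp0, Rplp1, Rplp2 or Rpsa, leaving out the Rps6k kinases and symbols ending in -ps. Of 48 such genes on the array, 46 reached a log2 intensity of at least 4 on 3 or more of the 15 arrays. They are 31 genes of the large subunit and 15 of the small subunit, among 9002 genes and 15856 probe sets that passed the same filter. Rpl26l1 and Rpl30 did not pass, with highest log2 intensities of 3.78 and 2.5. Just inside the limit were Rpl28, with a mean log2 intensity of 4.35, and Rps13, with 4.48 and 13 of 15 arrays at 4 or more. A further 36 probe sets named several genes at once and are described apart.

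GDNF is the factor that keeps spermatogonial stem cells renewing themselves in culture, and it acts through the receptor Ret and its co-receptor Gfra1. Before treatment every culture had expanded for 1 month with GDNF and without serum. Control cultures stayed in GDNF, withdrawal cultures went without it for 18 h, and the other 3 groups had GDNF returned for 2, 4 or 8 h after 18 h without it. Each of the 5 groups had 3 independent cultures and 1 array per culture, so every group value below has n = 3. No control was kept without GDNF during the 2, 4 and 8 h. For the source rats, strain, age and sex are not stated in the labels.

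Each ribosome carries 1 copy of nearly every ribosomal protein, so the genes of both subunits are expressed together and at high level in growing cells. Their mRNAs begin with a short run of pyrimidines, the terminal oligopyrimidine or TOP motif, through which the kinase mTOR and the RNA-binding protein Larp1 control how strongly the mRNA is translated. That control acts on translation more than on mRNA amount, and an array measures mRNA amount. Several members also have known roles apart from the ribosome: Rpl5 and Rpl11 bind Mdm2 when ribosome assembly is disturbed, and Rps6 is phosphorylated by the S6 kinases downstream of mTOR.

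To show what the start of these genes looks like, 50 bases around the annotated transcription start (30 before to 20 after) are given for 10 members, from RefSeq on GRCr8, read 5′ to 3′ on the gene's own strand. They were picked after their values were seen: 6 genes with called falls or rises below, 3 that were not called, and Rpl4. Capitals mark a run of at least 7 C or T bases that lies within 10 bases of the start.
Rpl22, chr5:168117931-168117980, plus strand: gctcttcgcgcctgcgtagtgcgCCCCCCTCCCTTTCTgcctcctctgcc
Rps28, chr7:15311314-15311363, minus strand: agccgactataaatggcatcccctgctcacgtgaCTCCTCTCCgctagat
Rps23, chr2:23814487-23814536, plus strand: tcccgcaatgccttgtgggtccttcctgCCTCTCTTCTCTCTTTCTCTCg
Rpl35, chr3:43165902-43165951, minus strand: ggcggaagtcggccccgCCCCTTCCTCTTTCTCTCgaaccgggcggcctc
Rpl19, chr10:83519034-83519083, plus strand: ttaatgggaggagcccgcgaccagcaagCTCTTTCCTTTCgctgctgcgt
Rpl13a, chr1:104748894-104748943, minus strand: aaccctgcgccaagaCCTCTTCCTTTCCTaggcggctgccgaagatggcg
Rplp0, chr12:46718371-46718420, minus strand: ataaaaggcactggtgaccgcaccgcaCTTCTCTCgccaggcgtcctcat
Rps15a, chr1:181860265-181860314, minus strand: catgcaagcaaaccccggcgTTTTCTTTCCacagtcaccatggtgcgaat
Rpl4, chr8:73566447-73566496, plus strand: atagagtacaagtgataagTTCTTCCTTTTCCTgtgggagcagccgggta
Rps6, chr5:106420521-106420570, minus strand: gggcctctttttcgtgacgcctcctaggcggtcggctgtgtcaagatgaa
The first 9 carry such a run. Rps6 has none within 10 bases of the annotated start, although its printed window holds an unmarked pyrimidine stretch further upstream.

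Of the 46 genes, 42 had a promoter in the RefSeq table (250 bases before to 50 after the start). The pyrimidine run was present in 30 of 42 (71.4%), against 19.1% of all 33465 promoters in the table. The letters CCGGAAG, which contain the core that Ets family factors bind, occurred on either strand in 10 of 42 (23.8% against 8.7%), among them Rpl11, Rpl27a, Rpl35, Rpl39l1, Rpl41 and Rps6. AAGATGGC, bound by the factor Yy1, occurred in 4 (9.5% against 3.2%), GGGCGG in 26 (61.9% against 33.1%) and TATAAA in 6 (14.3% against 14.2%). GGGCGG is the box bound by Sp1 and TATAAA the TATA box. None of the 4 motifs contains another, but CTTCCGG, the other strand of CCGGAAG, can share bases with a pyrimidine run. Such matches describe the letters in these windows and show no binding.

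The labelled cell type was checked against marker genes in the same arrays. Of 12 germ cell and spermatogonial markers 7 were tested, with mean intensities of 9293 for Epcam, 8693 for Itga6, 5398 for Uchl1, 3182 for Ret, 658 for Sall4, 647 for Etv5 and 406 for Cdh1. Ddx4, Dazl, Zbtb16, Gfra1 and Lin28a had no probe set tested. The summed intensity of the 7 ran from 31783 to 34710 in control, 25559 to 27770 in withdrawal, 24585 to 26549 at 2 h, 26525 to 27661 at 4 h and 28302 to 29285 at 8 h. The markers did not move as 1: on withdrawal 2 were called higher and 4 lower in the test described below. Of all probe sets, 11.4% and 9.67% were. Of 10 Sertoli markers 5 were tested, with mean intensities of 3316 for Clu, 287 for Cldn11, 25.6 for Dhh, 23.0 for Wt1 and 14.8 for Kitlg. Their sum, most of it Clu, ran from 3356 to 3535 in control, 3721 to 3991 in withdrawal, 3606 to 3726 at 2 h, 3393 to 3601 at 4 h and 3853 to 3973 at 8 h. Their mean log2 went the other way on withdrawal, from 6.81 ± 0.04 (SD) in control to 6.38 ± 0.07, with 1 called higher and 1 lower. The log2 changes of the 5 ran from -2.05 to 0.19 with a median of -0.097, so the fall of the mean rests mostly on 1 gene. Of 7 Leydig or peritubular and 7 immune markers 0 were tested. Of 16 mesenchymal markers 11 were tested, with summed intensities of 4252 to 6136 in control, 3302 to 5724 in withdrawal, 3069 to 3504 at 2 h, 3233 to 4577 at 4 h and 4960 to 5993 at 8 h. The part of germ cell and Sertoli marker shifts in the results below was not tested. In such bulk samples fewer cells of a type and less RNA per cell cannot be told apart.

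Ribosomal protein transcripts moved little across the 5 groups. In 40 of the 46 genes the mean log2 intensity was 11 or more, and the average over these 40 was 14.08 ± 0.02 (SD) in control, 14.14 ± 0.02 in withdrawal, 14.06 ± 0.01 at 2 h, 14.07 ± 0.03 at 4 h and 14.09 ± 0.01 at 8 h. Withdrawal arrays, at 14.12 to 14.16, lay above all 2 h arrays, at 14.05 to 14.07. Intensities of different probe sets are not comparable with each other, so each gene is compared only with itself. An F test over the 5 groups in limma, with Benjamini-Hochberg adjustment over all 15856 probe sets and a threshold of 0.05, called 17 of the 46 genes (37.0%), against a background of 49.6% of all probe sets tested. Without withdrawal replicate 2, or without 2 h replicate 2, that count was 11. Replicates lay close together: the median residual SD was 0.0435 for the 46 genes and 0.102 for all probe sets on the log2 scale.

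**Figure D1:**
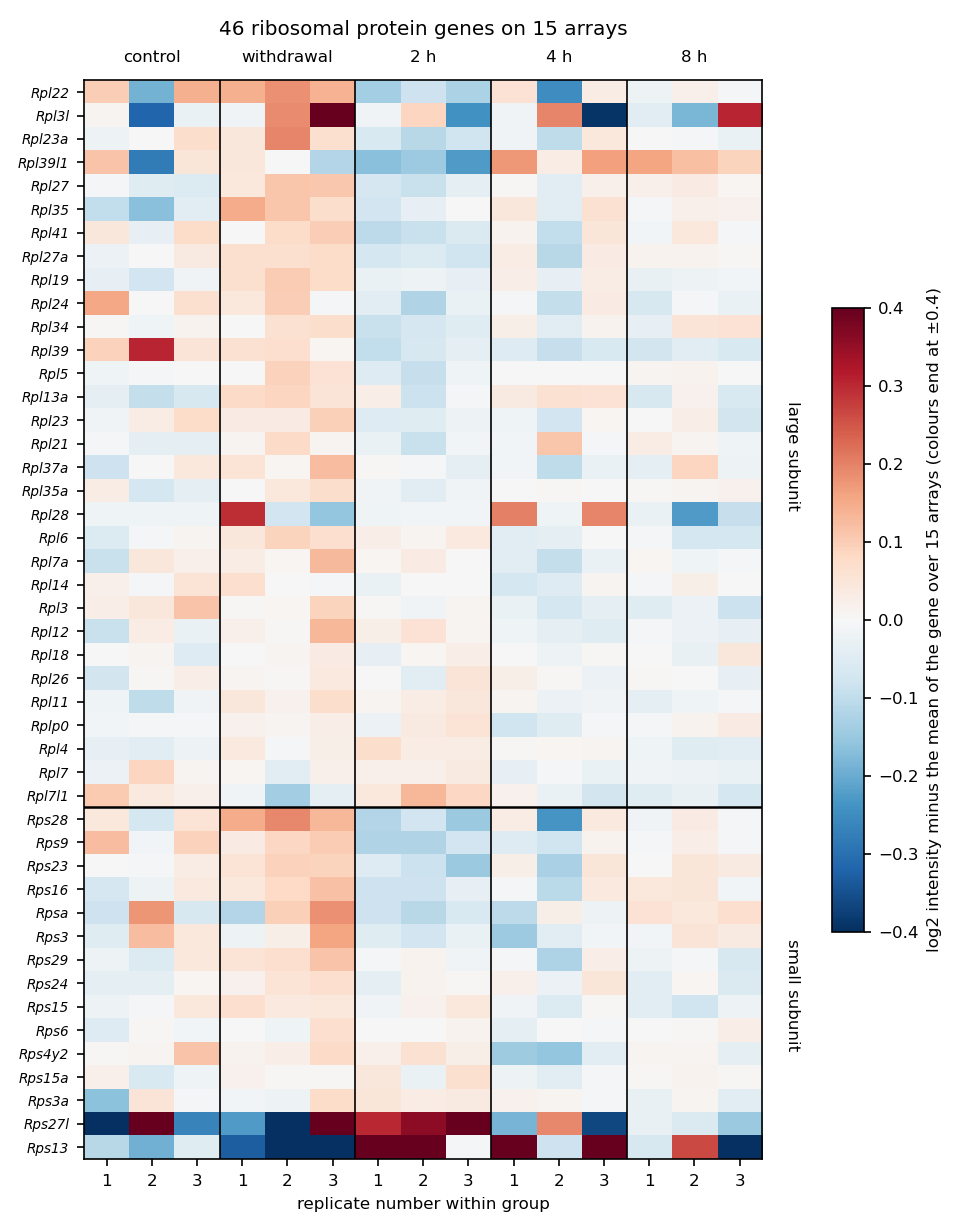
Each row is one of the 46 genes and each column one of the 15 arrays, and the colour is the log2 intensity minus that gene's mean over all arrays, with the scale ending at 0.4 on either side. In 35 of 46 genes the withdrawal mean lies above the means of all 3 replacement groups, and replicate 2 of the 4 h group is lowest of its group in 28 of 46 genes. The shares of all probe sets with these patterns were not computed.

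Withdrawal of GDNF for 18 h left ribosomal protein transcripts near control level, with slight rises in 5 large-subunit genes. Called higher were Rpl35, Rpl13a, Rpl19, Rpl27 and Rpl11, which is 5 of 46 (10.9%) against 11.4% of all probe sets called higher. None was called lower by limma, against 9.67% of all probe sets, and at an unadjusted p under 0.05 there were 12 higher and 1 lower. The median change was 0.052 on the log2 scale, beside 0.014 over all probe sets, and 38 of 46 changes were positive. None of the 15 small-subunit genes was called in limma, with 4 higher at an unadjusted p under 0.05. Whether the subunits differed was not tested.

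Rpl35, a protein near the exit of the tunnel through which the nascent chain leaves the ribosome, had the largest called rise. Its intensities were 17968, 17122 and 18668 in control and 21325, 20764 and 20203 in withdrawal. Every withdrawal array lay above every control array, and limma gave a log2 change of 0.21 (SE 0.04, 95% interval 0.13 to 0.29, 1.16-fold, adjusted p 0.000841). This call held under all 12 other settings, with adjusted p from 0.000478 to 0.0169. For genes with a single tested probe set, here and below, settings that change only which probe set or genes are picked repeat the main fit. Rpl13a, which also takes part in silencing of inflammatory mRNAs as a free protein, read 26608, 25613 and 26137 in control and 28844, 29044 and 28334 in withdrawal. The log2 change was 0.14 (SE 0.03, adjusted p 0.00687). Rpl19, a large-subunit protein that helps bridge the subunits, read 22253, 21616 and 22571 in control and 23823, 24468 and 23972 in withdrawal, a log2 change of 0.12 (adjusted p 0.00396). For both genes the groups were apart. After quantile normalization the changes were 0.09 and 0.07 with adjusted p of 0.0613 and 0.0547, so both calls ended there (ranges over settings 0.00455 to 0.0613 and 0.00299 to 0.0547).

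Rpl27, a large-subunit protein, rose by 0.12 (adjusted p 0.00741), from 19204, 18601 and 18549 to 19821, 20791 and 20730. That call ended without the intensity trend and with only the 2 groups fitted (0.0534 and 0.0541). Rpl11, the Mdm2-binding protein named above, read 13382, 12635 and 13411 in control and 13976, 13694 and 14215 in withdrawal. Its log2 change was 0.09 (adjusted p 0.0427), and the groups were apart although control replicate 2 was low. The Rpl11 call ended without control replicate 2 (adjusted p 0.176), without withdrawal replicate 1 (0.0949) and without withdrawal replicate 3 (0.126). It also ended under 6 other settings: no filter (0.0502), median centring (0.0851), quantile normalization (0.198, with a change of 0.05), no intensity trend (0.155), array weights (0.089) and only the 2 groups fitted (0.162). Its partner in binding Mdm2, Rpl5, read 24182, 24426 and 24466 in control and 24506, 26083 and 25497 in withdrawal, a log2 change of 0.06 (adjusted p 0.156).

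Return of GDNF for 2 h gave more calls in these genes than any of the other 5 comparisons, most of them lower: 14 of 46 genes were called lower and 2 higher than in withdrawal. Together that is 34.8%, against 26.1% of all probe sets (14.2% lower and 11.9% higher). The median change was -0.075, beside -0.021 over all probe sets, and 38 of 46 changes were negative. Large-subunit genes gave 10 lower and 1 higher calls of 31, and small-subunit genes 4 lower and 1 higher of 15. After quantile normalization the calls were 7 lower and 4 higher and the median was -0.038. The 2 h, 4 h and 8 h comparisons all use the same 3 withdrawal arrays.

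Rps28, a small-subunit protein near the mRNA exit, had the largest called fall together with Rpl22. Intensities were 21528, 22175 and 21272 in withdrawal and 17910, 18435 and 17512 at 2 h. Every 2 h array lay below every withdrawal array and below the control arrays, at 20016, 18488 and 20151. The log2 change was -0.27 (SE 0.06, 95% interval -0.39 to -0.15, 1.21-fold, adjusted p 0.00351), and it was called under all 12 other settings (adjusted p 0.000472 to 0.0176).

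Rpl22, an RNA-binding large-subunit protein known for its role in lymphocyte development, read 15507, 15971 and 15471 in withdrawal and 12803, 13288 and 12880 at 2 h. These groups were apart, while control replicate 2, at 12349, lay below the 2 h arrays and the other control arrays read 15061 and 15531. The log2 change was -0.27 (SE 0.08, 95% interval -0.44 to -0.10, adjusted p 0.0202). That call ended with no filter on low values (adjusted p 0.0606, range over settings 0.00142 to 0.0606) and without any of withdrawal replicate 2, 2 h replicate 1 and 2 h replicate 3.

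Rps9, a small-subunit protein at the mRNA entry side, read 10442, 10814 and 10960 in withdrawal and 9396, 9400 and 9682 at 2 h. Control arrays, at 11125, 10132 and 10879, also lay above all 2 h arrays. The change was -0.18 (adjusted p 0.00291). Rpl23a, a large-subunit protein at the tunnel exit, read 15081, 16729 and 15270 in withdrawal and 13984, 13517 and 13812 at 2 h, a change of -0.19 (adjusted p 0.00525). Rpl27a, another large-subunit protein, read 27320, 27352 and 27521 in withdrawal and 24915, 25178 and 24774 at 2 h, a change of -0.13 (adjusted p 0.00881). For all 3 the 2 h arrays lay below the withdrawal arrays. With Rps28, these were the 4 falls that held in every one of the 12 other settings and with any single array left out.

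Rps23, which lies in the decoding centre, read 21520, 22088 and 22025 in withdrawal and 19986, 19536 and 18672 at 2 h, a change of -0.17 (adjusted p 0.00581). Rpl35, highest in withdrawal, read 18236, 18827 and 19241 at 2 h, and Rpl27 read 18373, 18088 and 18799. The log2 change was -0.15 for each (adjusted p 0.00978 and 0.00175), and their 2 h arrays overlapped those of control. After quantile normalization the changes of Rps23, Rpl27 and Rpl35 were -0.07, -0.07 and -0.05, with adjusted p of 0.218, 0.0504 and 0.356, and none was called; those are also the highest adjusted p over their settings. Rps16, a small-subunit protein, fell from 19452, 19968 and 20490 to 17854, 17855 and 18471 (log2 change -0.14, adjusted p 0.0138). That call ended after quantile normalization (-0.08, 0.0689), without the intensity trend (0.0502) and with the mesenchymal covariate (0.0796). The other 5 genes called lower, Rpl41, Rpl19, Rpl34, Rpl5 and Rpl13a, had changes between -0.14 and -0.09.

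Several of these 2 h calls ended when a single array was left out, which also lowers the power of the test. Leaving out withdrawal replicate 2 ended the calls of Rpl13a, Rpl22, Rpl34, Rpl41, Rpl5 and Rpl7l1 (adjusted p 0.0619 to 0.129) and left 10 of 16. Without withdrawal replicate 3, Rpl13a, Rpl34, Rpl41 and Rps16 were lost (0.0533 to 0.066), and without withdrawal replicate 1 only Rpl13a was (0.0957). Without 2 h replicate 1, Rpl22, Rpl34, Rpl41 and Rps13 were lost (0.057 to 0.0699). Without 2 h replicate 2 the calls of Rpl13a, Rpl5 and Rpl7l1 ended (0.0591 to 0.196), and without 2 h replicate 3 those of Rpl13a, Rpl22 and Rpl7l1 (0.0531 to 0.0672).

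Both genes called higher at 2 h had low or conflicting signal. Rps13, a small-subunit protein, read only 17.7, 16.1 and 15.5 in withdrawal and 32.0, 30.3 and 22.2 at 2 h, beside the filter limit of 16. The log2 change was 0.76 (95% interval 0.33 to 1.19, adjusted p 0.0127). Rpl7l1, a paralog of Rpl7 with a known part in ribosome assembly, read 1405, 1287 and 1385 in withdrawal and 1460, 1556 and 1501 at 2 h. Its change was 0.15 (adjusted p 0.0217), but its other probe set gave -0.01 (adjusted p 0.951). Among the 40 genes with a mean log2 intensity of 11 or more, 14 were called at 2 h, each of them lower.

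Mesenchymal markers were lower at 2 h on average, with a mean log2 of 7.81 ± 0.13 against 8.32 ± 0.44 in withdrawal. Of the 11, 4 were called lower, against 14.2% of all probe sets. With that mean as a covariate, 10 of 46 ribosomal protein genes were called at 2 h, each of them lower, and the median change was -0.052. In the same fit 3630 of all 15856 probe sets were called, with a median of -0.032.

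**Figure D2:**
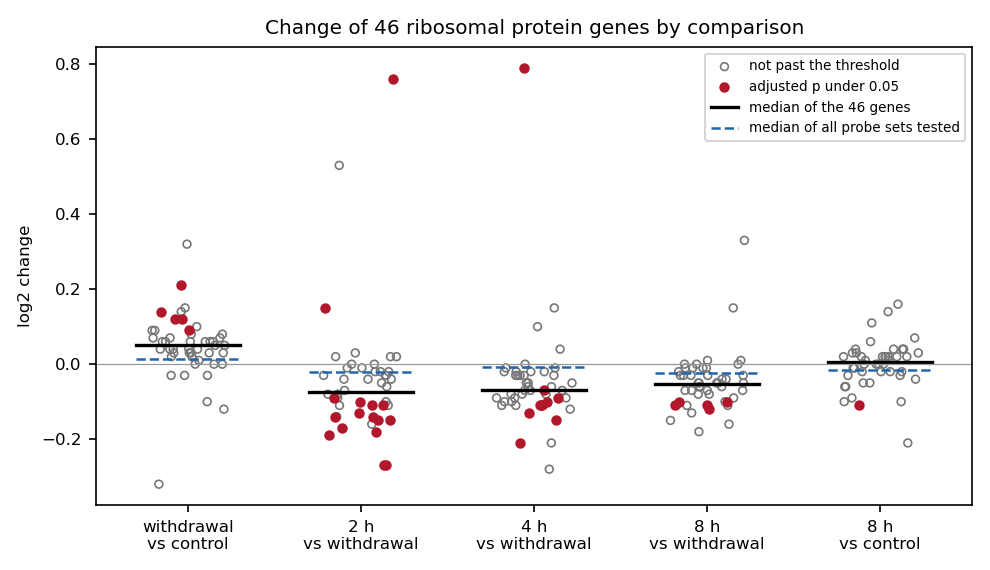
Points are the log2 changes of the 46 genes in 5 comparisons, filled red where the adjusted p in limma is under 0.05, with a black line at their median and a dashed blue line at the median of all probe sets. Medians are 0.052 in withdrawal against control and -0.075, -0.07 and -0.054 at 2, 4 and 8 h against withdrawal, and 0.007 at 8 h against control.

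After 4 h, 9 genes were called lower than in withdrawal and 1 higher, which is 21.7% of 46 against 30.6% of all probe sets (16% lower and 14.6% higher). The median change was -0.07, beside -0.008, and 42 of 46 changes were negative. Rps28 had the largest called fall again, to 19830, 16474 and 19961, a log2 change of -0.21 (adjusted p 0.0119). All its 4 h arrays lay below all its withdrawal arrays, with replicate 2 far below the others. That call ended after quantile normalization (-0.16, adjusted p 0.0608) and with only the 2 groups fitted (adjusted p 0.0753). Rps4y2, a small-subunit protein of the Rps4 family, read 3478, 3508 and 3632 in withdrawal, 3489, 3593 and 3503 at 2 h and 3119, 3095 and 3340 at 4 h. Its 4 h arrays were below those of every other group, the change from withdrawal was -0.15 (adjusted p 0.00863), and this call held in all 12 other settings (adjusted p 0.00211 to 0.0421). At 8 h Rps4y2 read 3470, 3470 and 3359.

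The other genes called lower at 4 h were Rpl23a (-0.13), Rps29 (-0.11), Rps9 (-0.11), Rpl7a (-0.11), Rpl6 (-0.10), Rpl27 (-0.09) and Rpl19 (-0.07), with adjusted p from 0.0205 to 0.0488. Rps29, a small zinc-binding protein of the small subunit, read 43064, 43424 and 44880 in withdrawal and 41221, 38106 and 42202 at 4 h, which were apart. All 7 calls ended without 4 h replicate 2 (adjusted p 0.0556 to 0.175), leaving Rps13, Rps28 and Rps4y2. Of the 7, without withdrawal replicate 2 all but Rpl7a were lost (0.0562 to 0.178), and without withdrawal replicate 3 Rpl19, Rpl27, Rpl7a, Rps29 and Rps9 were (0.0798 to 0.18). Without 4 h replicate 1 the calls of Rpl19, Rpl23a, Rpl6, Rpl7a and Rps9 ended (0.061 to 0.0803), and Rpl19 was also lost without withdrawal replicate 1 (0.0609) or 4 h replicate 3 (0.0506). Rps13 was called higher again (log2 change 0.79, adjusted p 0.00847), at 33.7, 21.0 and 32.0. Rpl22 read 14624, 11829 and 14340 at 4 h and its change of -0.21 had an adjusted p of 0.0551.

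At 8 h, 5 genes were called lower than in withdrawal and none higher by limma, which is 10.9% of 46 against 25% of all probe sets (15.4% lower and 9.62% higher). At an unadjusted p under 0.05 there were 13 lower and 0 higher. The median change was -0.054, beside -0.024, and 41 of 46 changes were negative. Rpl6, a large-subunit protein, read 11826, 12176 and 12001 in withdrawal and 11409, 10924 and 10915 at 8 h, which were apart, a change of -0.12 (adjusted p 0.00875). That call ended with each array centred on its median and without the intensity trend (range over settings 0.00404 to 0.0551). Rpl13a (-0.11), Rps29 (-0.11), Rpl19 (-0.10) and Rps15 (-0.10) were the others, with adjusted p from 0.0114 to 0.0426. Rps15, a small-subunit protein whose tail reaches the decoding site, read 18384, 18021 and 18069 in withdrawal and 17000, 16586 and 17287 at 8 h. Of these 4, Rps29 was lost without any 1 of the 6 arrays (adjusted p up to 0.151). Rpl13a was lost without withdrawal replicate 1 or 2 or 8 h replicate 1 or 3, Rps15 without withdrawal replicate 1 or 8 h replicate 2, and Rpl19 without withdrawal replicate 2 (0.0506 to 0.0927). The count fell to 2 without withdrawal replicate 2 and to 3 without withdrawal replicate 1, 8 h replicate 1 or 8 h replicate 3. With each array centred on its median it was 0, with 5 at an unadjusted p under 0.05.

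Across the 3 times, 35 of 46 genes lay below withdrawal at each, and 19 were called lower at 1 time or more. The matching shares over all probe sets were not computed. At 2, 4 and 8 h taken singly, 14.2%, 16% and 15.4% of all probe sets were called lower. Rpl19 was the only gene called lower at all 3, with 22354, 22451 and 22287 at 2 h, 23196, 22292 and 23268 at 4 h and 22321, 22477 and 22628 at 8 h. Every one of these arrays was below the withdrawal arrays of 23823, 24468 and 23972. Rpl19, Rpl23a, Rpl27, Rps28 and Rps9 were called lower at both 2 and 4 h.

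Compared with cultures that never lost GDNF, the 8 h cultures had 1 gene called lower and none higher, 2.17% of 46 against 12.3% of all probe sets (7.49% lower and 4.83% higher). At an unadjusted p under 0.05 limma gave 4 lower and 1 higher. The median change was 0.007, beside -0.015. Rpl3, the large-subunit protein nearest the peptidyl transferase centre, was the gene called: 28682, 29069 and 30510 in control and 27237, 27711 and 26576 at 8 h. The groups were apart, and the log2 change was -0.11 (SE 0.03, adjusted p 0.026). Without control replicate 3, 8 h replicate 1 or 8 h replicate 3 the adjusted p was 0.11, 0.0672 and 0.106. The call also ended with median centring (0.104), quantile normalization (0.0677), no intensity trend (0.114), the lowest-mean probe set (0.94) and only the 2 groups fitted (0.0782). For Rpl35, the 8 h arrays at 19126, 19519 and 19452 remained above control, with a change of 0.11 that did not pass (adjusted p 0.0602).

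Between 2 and 8 h of GDNF, 5 genes were called higher and 2 lower, 15.2% of 46 against 26.2% of all probe sets (11.8% higher and 14.4% lower). This contrast was chosen with the data already in view. Mesenchymal markers moved in the same comparison: 8 of the 11 were called, each higher at 8 h, with a median change of 0.666. With their mean as a covariate 1 ribosomal protein gene was called, Rpl39l1. Rpl39l1, a paralog of Rpl39 known to be used in male germ cells, had the largest called rise. It read 8217, 8334 and 7878 at 2 h and 10287, 10018 and 9821 at 8 h, with the 4 h arrays at 10399, 9420 and 10344. The 2 h arrays were below all 4 h and 8 h arrays, and the change from 2 to 8 h was 0.30 (SE 0.08, 95% interval 0.14 to 0.47, 1.23-fold, adjusted p 0.00973). It held under all 12 other settings (adjusted p 0.000678 to 0.0325) and with any array left out. Against withdrawal, at 9524, 9212 and 8514, Rpl39l1 was not called at 2 h (-0.16, adjusted p 0.152), 4 h (0.15, 0.17) or 8 h (0.15, 0.189). Its 2 h change was called with the mesenchymal covariate (-0.28, adjusted p 0.0217) and with only the 2 groups fitted (0.0468). Control replicate 2, at 7593, was below every other array of this gene.

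Rps23 (0.12), Rps9 (0.11), Rpl34 (0.09) and Rpl27 (0.08) also rose between 2 and 8 h, with adjusted p from 0.0346 to 0.0448. Rpl4 (-0.08, adjusted p 0.0236) and Rpl7l1 (-0.14, adjusted p 0.0333) fell. After quantile normalization the split was 2 higher and 6 lower, and with arrays centred on the median there were 5 calls, each higher. With single arrays left out the count was 1 to 5: 6 of the 7 calls ended without 8 h replicate 2 (adjusted p 0.0607 to 0.145) or 8 h replicate 3 (0.0712 to 0.149). Without 2 h replicate 2, 5 ended (0.0646 to 0.143), without 2 h replicate 1 or 3, 4 each (0.107 to 0.136 and 0.051 to 0.142), and without 8 h replicate 1, 3 (0.0743 to 0.0959).

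**Figure D3:**
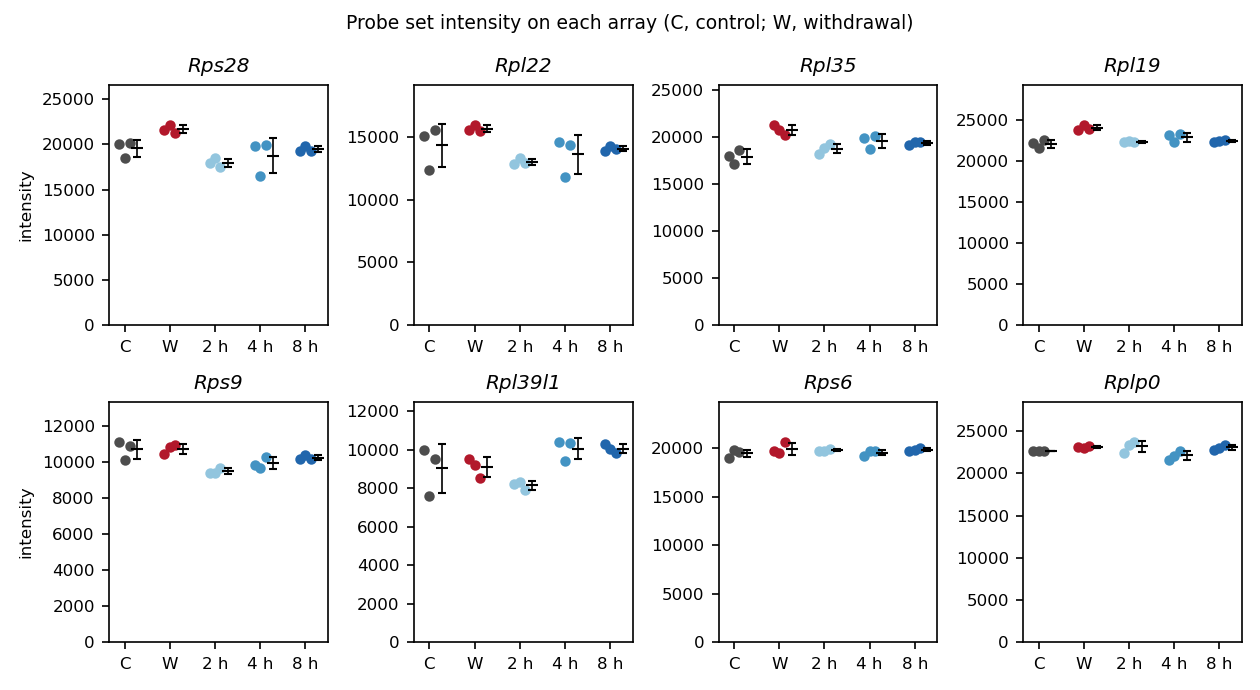
Each point is the intensity on 1 array for 8 genes in the 5 groups, with the group mean and SD as bars beside the points. Rps28, Rpl22 and Rps9 drop from withdrawal to 2 h, Rpl35 and Rpl19 are highest in withdrawal, Rpl39l1 is lower at 2 h than at 4 and 8 h, and Rps6 and Rplp0 stay level.

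Rps6 and Rplp0 were not called in any of the 6 comparisons. Rps6, the S6 kinase substrate, read 19019, 19755 and 19553 in control, 19723, 19469 and 20638 in withdrawal, 19737, 19701 and 19894 at 2 h, 19224, 19670 and 19655 at 4 h and 19715, 19777 and 20048 at 8 h. The groups overlapped, and its changes were 0.04 on withdrawal (95% interval -0.02 to 0.09, adjusted p 0.385) and -0.01 at 2 h (-0.07 to 0.05, adjusted p 0.792). Rplp0, a protein of the stalk that recruits elongation factors, read 22703, 22716 and 22715 in control, 23131, 23056 and 23274 in withdrawal and 22480, 23416 and 23742 at 2 h. Its change was 0.03 on withdrawal (adjusted p 0.519) and 0.00 at 2 h (adjusted p 0.946). Its 4 h arrays, at 21651, 22119 and 22715, lay below withdrawal, with a change of -0.06 that did not pass (adjusted p 0.09). Rplp1, Rplp2 and Rps27a had no probe set with 1 symbol and were not analysed here.

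Rpl5 was called only at 2 h, where it read 23648, 22986 and 24212 (change -0.10, adjusted p 0.0132), below all withdrawal arrays. That call ended without withdrawal replicate 2 or 2 h replicate 2 and after quantile normalization (change -0.04, adjusted p 0.265, range 0.00279 to 0.265). It also ended without the intensity trend (0.0795), with the mesenchymal covariate (0.121) and with only the 2 groups fitted (0.0626). Rpl11, by contrast in values, was -0.01 at 2 h (adjusted p 0.754), -0.05 at 4 h and -0.06 at 8 h. Whether the changes of Rpl5 and Rpl11 differed was not tested.

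Rpsa, the small-subunit protein also called the laminin receptor, varied more between replicates than most. It read 10558, 12645 and 10705 in control, 10303, 11947 and 12678 in withdrawal and 10555, 10344 and 10716 at 2 h. These overlapped, and the change at 2 h was -0.14 (95% interval -0.29 to 0.01, adjusted p 0.163). That change was called with array weights (-0.16, adjusted p 0.0435) and without withdrawal replicate 1 (-0.22, adjusted p 0.02).

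Paralogs were compared with their partners by values side by side, since probe sets cannot be set against each other in level. Rpl39 was near the low end, at 37.0, 42.9 and 36.0 in control and 33.0, 33.7 and 33.3 at 8 h. That change of -0.21 was not called (adjusted p 0.12), except without the intensity trend (adjusted p 0.0368). Rpl39l1 over the same comparison gave 0.16 (adjusted p 0.2). By the probe sets used, Rpl7 stayed within -0.05 and 0.03 in the 6 comparisons. Rpl7l1 gave -0.12 on withdrawal (adjusted p 0.0709), 0.15 at 2 h and -0.14 between 2 and 8 h. The other probe set of Rpl7 gave 0.86 at 2 h (adjusted p 0.0303). That of Rpl7l1 gave 0.00 on withdrawal (adjusted p 0.999), -0.01 at 2 h (0.951) and -0.13 between 2 and 8 h (0.0807). Rpl3l, a muscle paralog of Rpl3, ran from 49.0 to 88.2 over the 15 arrays and was not called in any comparison, the nearest being 0.32 on withdrawal (95% interval -0.04 to 0.68, adjusted p 0.203). Rps27l, a p53-responsive paralog of Rps27, ran from 117 to 329 and gave 0.53 at 2 h (95% interval -0.08 to 1.15, adjusted p 0.188). With array weights that change was called (0.64, adjusted p 0.0479). For Rpl22 the partner Rpl22l1, and for Rps27l the partner Rps27, were not analysed here.

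The 5 genes with the smallest F test p were Rpl35 (adjusted p 0.0031), Rps9 (0.0042), Rpl27 (0.00491), Rpl19 (0.00843) and Rpl13a (0.00916). The 5 with the smallest range of group means were Rpl18, Rpl26, Rps6, Rpl7 and Rps15a, whose group means spanned 0.030, 0.033, 0.036, 0.048 and 0.052 on the log2 scale. Rpl18, a large-subunit protein, ran from 15142 to 16194 over all 15 arrays.

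How small a change these arrays could still allow was read from the 95% intervals. In withdrawal against control the interval lay within 1.25-fold in both directions for 43 of 46 genes (93.5%), against 50.2% of all probe sets and 85.1% of the 1473 other probe sets with a mean log2 of 11 or more. At 2 h against withdrawal the count was 41 of 46, against 47.5% and 82.8%. At 4 h and 8 h against withdrawal it was 40 and 41 of 46, against 45.2% and 48.3% of all probe sets and 79.7% and 84.9% of the other bright ones. For 8 h against control it was 40 of 46 (87%), above the 55.7% of all probe sets but below the 92.7% of the other bright ones. For 8 h against 2 h it was 41 of 46 (89.1%), against 48.8% and 84.2%. Of the 40 genes with a mean log2 of 11 or more, 39 (97.5%) met the limit in each of these last comparisons. Array maxima lay between 47152 and 53476, so the brightest genes, such as Rps29 at 38106 to 44880, stood near the top of the scale, where fluorescence can respond less than in proportion. Whether it did here was not tested.

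**Figure D4:**
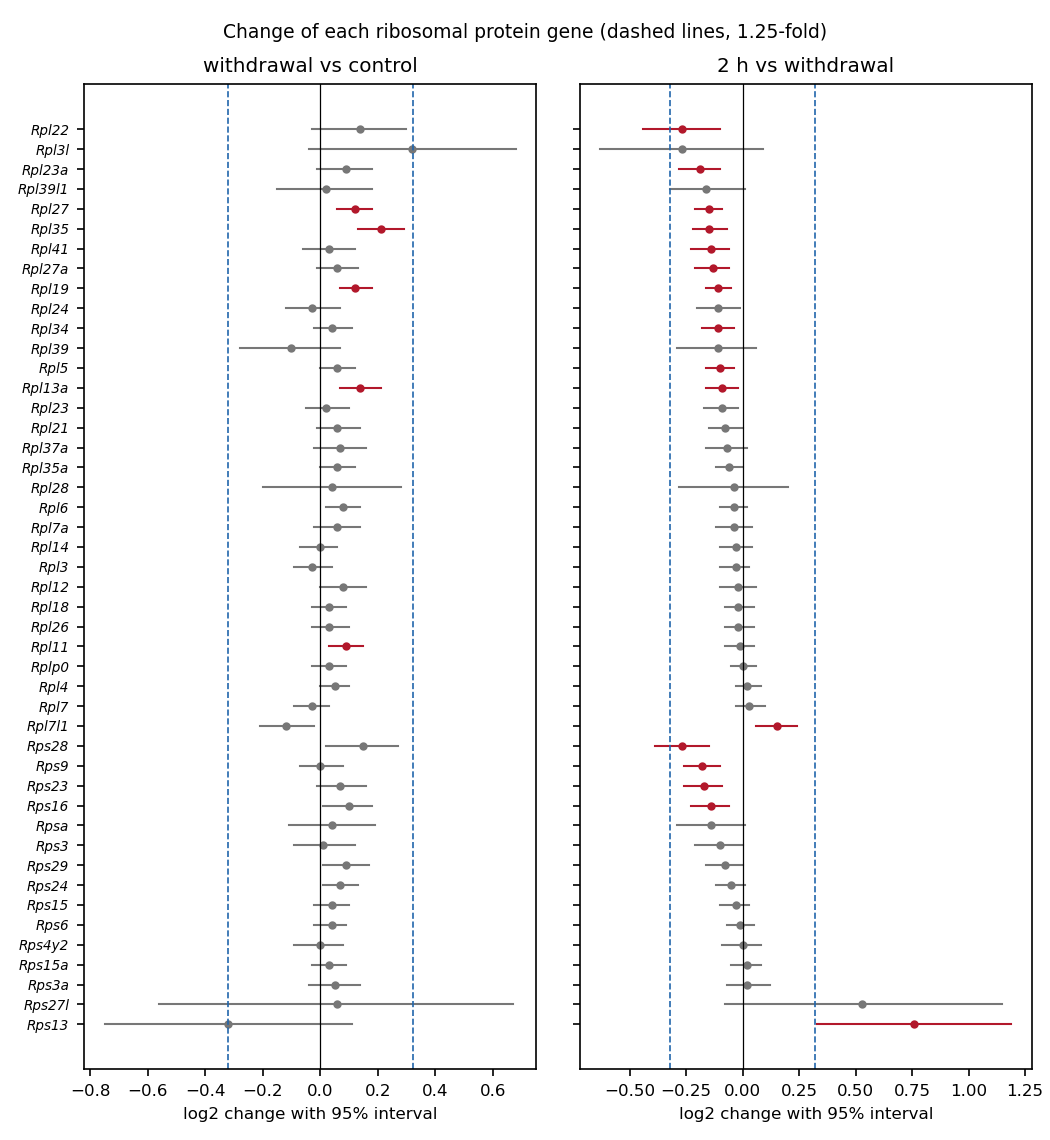
Each gene's log2 change is shown with its 95% interval from limma for withdrawal against control and for 2 h against withdrawal, called genes in red and dashed lines at a 1.25-fold change. In the first, 43 of 46 intervals lie between the dashed lines, and in the second 41 do.

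Genes with more than 1 tested probe set showed how far the choice of probe set matters. The dimmest of 3 Rpsa probe sets, of a type that can bind several related transcripts, read 4316, 6416 and 6963 in withdrawal, 3952, 3977 and 4391 at 2 h and 5943, 6542 and 5983 at 8 h. Its change at 2 h was -0.49 (adjusted p 0.0253), although its withdrawal replicate 1 lay within the 2 h values, and from 2 to 8 h it was 0.58 (adjusted p 0.00999). The second Rpsa probe set read 8886, 9076 and 9214 at 4 h against 9441, 9811 and 10361 in withdrawal, a change of -0.12 (adjusted p 0.0393). For Rpl3 the second probe set, of the same several-transcript type, read 2574, 2511 and 3014 at 2 h and 4456, 4896 and 4489 at 8 h (0.78, adjusted p 0.0377), where the one used gave -0.05. A second Rpl7 probe set, at 138 to 205 in withdrawal and 272 to 323 at 2 h, gave 0.86 (adjusted p 0.0303), where the one used gave 0.03. Ribosomal protein genes have many processed pseudogenes: the RefSeq table lists a median of 10.5 such loci per member by name, and 25 for Rpsa. Which loci each probe set binds was not tested.

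**Figure D5:**
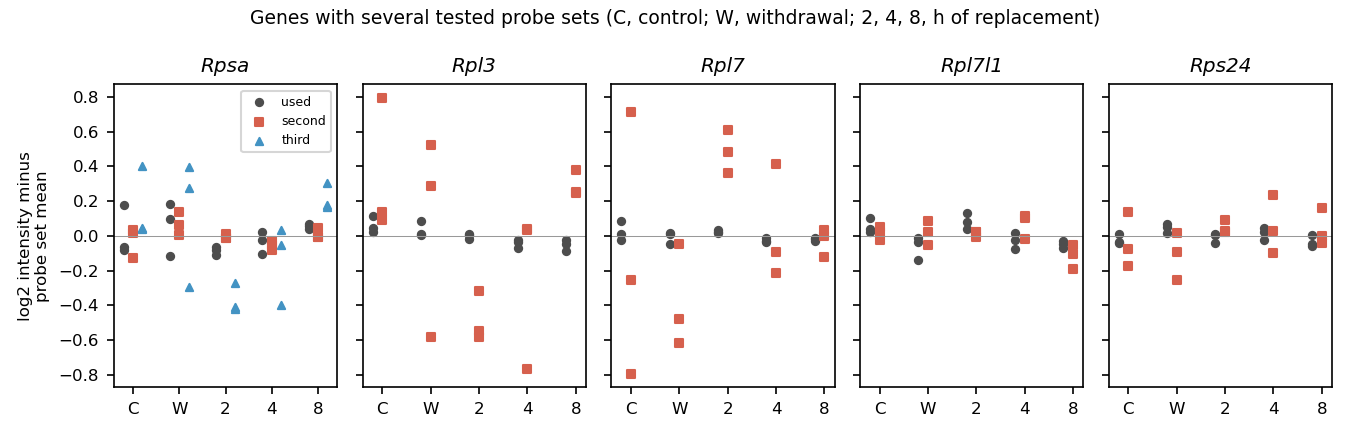
Log2 intensity minus the probe set's own mean is shown on each array for the 5 genes with several tested probe sets, with the one used as black circles. The dimmest Rpsa (triangles) and second Rpl3 probe sets are lower at 2 h than at 8 h on every array, while the probe sets used stay within 0.2 of their mean.

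The 36 probe sets that name a ribosomal protein gene together with other symbols gave 5 calls on withdrawal, each higher (median 0.037), 1 higher and 15 lower at 2 h (-0.077), 1 higher and 7 lower at 4 h (-0.069) and 4 calls at 8 h, each lower (-0.033). At 8 h the limma counts at an unadjusted p under 0.05 were 1 higher and 9 lower. Of all probe sets, 11.4% were called higher on withdrawal, and 14.2%, 16% and 15.4% lower at 2, 4 and 8 h. From 2 to 8 h, 10 of the 36 were called, each higher (median 0.035), against 11.8% of all probe sets called higher and 14.4% lower. No gene name is given for the 36 probe sets, and some may measure the same genes as the 46.

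Related gene groups were set beside these genes on the same fit. Of all probe sets, 11.4% were called higher and 9.67% lower on withdrawal, 11.9% and 14.2% at 2 h, 14.6% and 16% at 4 h, and 9.62% and 15.4% at 8 h, and the counts below are to be read against these shares. Of 16 tested translation genes whose mRNAs carry the same kind of pyrimidine start, 4 were called higher and 1 lower on withdrawal (median 0.059), and 7 lower and 1 higher at 2 h (-0.106). At 4 h 7 were called lower (-0.114) and at 8 h 3 (-0.082). Eef1d, a subunit of the factor that reloads elongation factor 1, rose on withdrawal (0.17, adjusted p 0.00367) and was lower at 4 h (-0.17, adjusted p 0.0028). Eif3h, an initiation factor subunit, rose on withdrawal (0.17, adjusted p 0.0123), and Eif2s3, a subunit of initiation factor 2, fell (-0.22, adjusted p 0.00236). At 2 h Eef2, the elongation factor for translocation, fell by 0.23 (adjusted p 0.00362), Eif4b, a helicase cofactor, by 0.15 (0.00835) and Rack1, a protein of the small subunit, by 0.16 (0.00909).

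Mitochondrial ribosomal proteins build the separate ribosome of mitochondria. Of 73 tested, 9 were called higher and 1 lower on withdrawal (median 0.054), 2 higher and 10 lower at 2 h (-0.079), 28 lower at 4 h (-0.107) and 21 lower at 8 h (-0.092). Mrpl20 and Mrpl23 rose by 0.27 and 0.28 on withdrawal (adjusted p 0.000823 and 0.0011). At 2 h Mrps6 fell by 0.35 (0.00013) and Mrpl41 by 0.31 (0.00144). At 4 h Mrpl41 fell by 0.51 (adjusted p 9.52e-06) and Mrpl34 by 0.43 (3.75e-05) against withdrawal.

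Among 25 tested genes of ribosome assembly and the nucleolus the calls went both ways at first: 2 higher and 1 lower on withdrawal, 2 and 2 at 2 h, 4 and 1 at 4 h. At 8 h there were 3 calls against withdrawal, each lower. Rrs1, needed for assembly of the large subunit, rose by 0.39 on withdrawal (adjusted p 0.0072) and fell by 0.57 at 2 h (adjusted p 0.000477). Nip7, another assembly factor, moved the other way, by -0.23 (adjusted p 0.00264) and 0.19 (adjusted p 0.00862). Rrn3, which brings RNA polymerase I to the ribosomal RNA genes, rose by 0.30 at 2 h (adjusted p 0.00172).

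Of 18 tested genes of translation signalling, 4 were called higher and 2 lower on withdrawal and 2 higher and 4 lower at 2 h. Ddit4, an inhibitor of mTOR signalling, rose by 0.55 on withdrawal (adjusted p 7.95e-07) and against withdrawal was -0.27 at 2 h (adjusted p 0.000618), 0.18 at 4 h (adjusted p 0.00848) and -0.28 at 8 h (adjusted p 0.000459), so its direction changed between the times. Mxd4, an antagonist of Myc, rose by 0.57 on withdrawal (adjusted p 0.00509) and fell by 0.83 at 4 h (adjusted p 0.000178). Mtor itself rose by 0.23 on withdrawal (adjusted p 0.00522), and Rheb, its activator, rose by 0.18 at 2 h (adjusted p 0.00444). Eif4ebp1, a translation repressor that mTOR inactivates, fell by 0.29 at 4 h (adjusted p 0.0015).

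The promoter letters were set beside the 2 h changes as a description. Of the 30 genes with a pyrimidine run at the start, 10 were called lower and 1 higher at 2 h, with a median change of -0.085. Of the 12 without one, 2 were called lower and 1 higher, with a median of -0.025. This split rests on 1 annotated start per gene, and a run further than 10 bases from it, as in Rps6, was not counted. Of the 10 genes with CCGGAAG, 4 were called lower at 2 h (median -0.11), and of the 32 without it 8 were (-0.055), beside 14.2% of all probe sets called lower. The order was the other way at 4 h, with medians of -0.05 with CCGGAAG and -0.07 without. Of the 42 genes with a promoter, 6 were called lower at 4 h, all among the 32 without CCGGAAG. At 8 h 4 were, also all among the 32 (medians -0.04 with CCGGAAG and -0.05 without). Of all probe sets, 16% and 15.4% were called lower at these times, and 10 genes are too few to read the absence of calls. Rpl23a, Rpl27 and Rps29 had no promoter in the RefSeq table and are in neither group. On withdrawal 3 of 30 with a run and 1 of 12 without were called higher, against 11.4% of all probe sets. Rps28 and Rpl22, with the largest called falls at 2 h, and Rplp0 and Rps15a, which were not called in any comparison, all carry a run in the windows printed above.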

How the data were processed

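Biotin-labelled cRNA from total RNA of 15 rat cultures was hybridised to 1 array each. The deposited values are intensities on a linear scale, as their range shows; GCRMA and Partek 6.3 are named in the submitters' processing notes, with no role or order given. Log2 was taken, 57 control probe sets were left out, and probe sets with log2 of at least 4 (16 linear) on 3 arrays were kept, 15856 of 31099. GCRMA models background from probe sequence, which makes values near the filter limit uncertain. Limma 3.58.1 in R 4.3.3 (lmFit, eBayes with an intensity trend) was fitted to all 15 arrays with 5 group means and 10 residual degrees of freedom, with two-sided tests and Benjamini-Hochberg adjustment within each comparison. A gene is called where the adjusted p is under 0.05. The probe set with the highest mean stands for a gene. The p-values rest on the spread between cultures within groups, pooled over the 5 groups and moderated toward probe sets of similar intensity. Having only 3 cultures a group limits the precision.

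Members named in full were the 8 largest called rises and falls in each comparison, genes with known roles outside the ribosome, paralogs, and the 5 genes with the smallest F test p or the smallest range of group means. Of related lists, up to 3 called genes with small adjusted p were taken in a comparison, not always those with the smallest. Members and lists were chosen with earlier results of these data known. Gene names come from the platform annotation and 44 of 46 members matched the RefSeq table by gene ID. Promoters were searched in Python 3.11.15 in 300 bases per gene. The fit was tested on simulated data.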

Additional observations from a re-analysis of the deposited data

Results flagged for a closer look

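The 7 results below stood out from a test of 8 h against 2 h of GDNF, that is, of whether the changes from withdrawal differed between the 2 times. Rpl39l1 differed by 0.30, Rps23 by 0.12, Rps9 by 0.11, Rpl34 by 0.09 and Rpl27 by 0.08 on the log2 scale, each higher at 8 h in limma. Rpl4 differed by -0.08 and Rpl7l1 by -0.14. Only Rpl39l1 kept its call with any single array left out and under all 12 other settings.

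A signal outside the main measurement was that of the 5S ribosomal RNA control probe set, which was left out of the tests. It read 1263 ± 58.4 (SD, n = 3) in control, 2044 ± 45.8 in withdrawal, 1682 ± 28.4 at 2 h, 1444 ± 165 at 4 h and 1258 ± 29.8 at 8 h. All withdrawal arrays lay above all arrays of the other groups. The RNA was labelled from a poly(T) primer, and 5S ribosomal RNA has no poly(A) tail; what part RNA amount or quality has in this signal was not tested.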

How the results depend on the processing

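Medians kept their sign in all 12 other settings for the 4 comparisons with withdrawal, but their size and the counts of called genes moved. On withdrawal the count was 3 without the intensity trend and 3 with only the 2 groups fitted, the median 0.022 after quantile normalization, and the quantile split 4 higher and 1 lower. At 2 h the count was 10 without the trend (2 higher, 8 lower) and 10 with the mesenchymal covariate, which was chosen after the data were seen. The 2 h medians were -0.055 with median centring, -0.038 after quantile normalization and -0.052 with the covariate. At 4 h the count was 6 with no filter, 3 each with centring, quantile normalization and no trend, and 2 with the groups alone, with medians of -0.047 (centring) and -0.027 (quantile). At 8 h it was 8 with log2 of at least 6, 0 with centring, 0 without the trend (5 and 7 at an unadjusted p under 0.05 in limma), 10 with array weights and 8 with the groups alone, with medians of -0.019 and -0.031 under centring and quantile. For 8 h against control the count was 2 with log2 of at least 6, 0 with the lowest-mean probe set, 2 with the covariate and 0 with the groups alone (4 at an unadjusted p under 0.05 in limma in both cases of 0), and the centred median was 0.034, with 1 higher call in place of 1 lower. For 8 h against 2 h it was 2 with no filter, 1 without the trend, 11 with weights, 1 with the covariate and 14 with the groups alone. The F test called 11 with no filter, 6 without the trend and 11 with the covariate. With the lowest-mean probe set several changes turned sign, among them Rpl7l1 at 2 h (-0.01) and Rpl3 from 2 to 8 h (0.78). Rps24 turned on withdrawal (-0.07 in place of 0.07) and at 2 h (0.15 in place of -0.05), called with neither probe set. The cause of these moves was not tested.

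Leaving out 1 array gave 4 to 6 calls on withdrawal, 10 to 16 at 2 h, 3 to 13 at 4 h, 2 to 5 at 8 h, 0 to 1 for 8 h against control, 1 to 5 for 8 h against 2 h and 11 to 20 in the F test. Medians ran from 0.042 to 0.066, -0.083 to -0.057, -0.083 to -0.051, -0.065 to -0.037, -0.01 to 0.016 and 0.001 to 0.014 in the same order.

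Replicate numbers gave no clear pairing of the cultures: of 30 same-number pairs 8 had a correlation over 0.1, with r from -0.138 to 0.389. The median r was 0.0405 for these pairs and -0.013 for other pairs. So few arrays a group cannot decide whether a partial pairing was present. With the replicate number as a block the counts were 5, 15, 12, 5, 1 and 6 in the same order and 18 in the F test. Of the calls without it, the block kept 15 of 16 at 2 h, 9 of 10 at 4 h, where it added 3, and 6 of 7 from 2 to 8 h. Among genes named in full it brought Rpl22 at 4 h under the threshold (adjusted p 0.044) and took Rpl27 from 2 to 8 h over it (0.056).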
